A study of Drosophila simulans with 4 samples.

Results

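The genes described here are 10 late male germline genes, the sperm tail genes Mst84Da (FBgn0004172), Mst84Db (FBgn0004173), Mst84Dc (FBgn0004174), Mst84Dd (FBgn0004175), Mst87F (FBgn0002862), Mst98Ca (FBgn0002865), Mst98Cb (FBgn0004171) and dj (FBgn0019828) and the protamine-like genes Mst35Ba (FBgn0013300) and Mst35Bb (FBgn0013301). They were chosen by these identifiers among the 15358 genes listed, with earlier results of these data known. All 10 had reads in all 4 libraries. Whole-body RNA of adult D. simulans males was sequenced in 1 library for each of 4 groups. The groups were males from Gotheron (France) on cornmeal medium (CG) or on a natural medium (NG), and males from Mayotte (Comores, France) on cornmeal medium (CM) or on a natural medium (NM). The fruit used as natural medium was apple for Gotheron and banana for Mayotte, so the medium called natural was not the same food in the 2 populations. Each library held 100 males, every one from a different wild-caught female and reared in the laboratory, and the labels give 7 days of growth while the methods give a shorter aging. RNA from 4 extractions was pooled for each library, so the 2 libraries of a population differ in medium as well as in males, and the spread between them holds both. The methods report that bacteria contaminated the natural medium in Mayotte. No treatment other than the medium is named for any group.

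In D. melanogaster, the genes of late sperm differentiation are transcribed in primary spermatocytes, and many of their messengers are stored without translation until after meiosis. The Mst84D genes, Mst87F and the pair Mst98Ca and Mst98Cb form the Mst(3)CGP family, whose proteins carry repeats of cysteine, glycine and proline and belong to the sperm tail. The product of dj (don juan) lies along the sperm tail with the mitochondrial derivatives. Mst35Ba and Mst35Bb encode protamine-like proteins that take the place of histones when the sperm nucleus is compacted. These roles are known from D. melanogaster and are given as background for the D. simulans reads assigned to the same identifiers.

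The reads recovered from the normalised counts ranged from 9829895 to 10365609 per library, and the deposited values of each library were scaled to the same total of 10052291. The recovery takes the smallest value of a library as a single read. The recovered reads are fewer than the mapped reads per replicate that the paper states, and the reason was not tested. Only the 3′ end of each cDNA was sequenced, so the normalised counts of different genes were set side by side without a correction for length. The most abundant 10 genes of the table took 7.55% to 8.18% of the values in the Gotheron libraries and 10.6% to 12.3% in the Mayotte libraries. With equal totals, the 12507 genes that had reads in both populations and a mean of 5 or more had a median log2 ratio of Gotheron over Mayotte of 0.13, and it was 0.00 after TMM scaling, which levels the bulk of the genes. The ratios of the sperm genes are therefore read against that median. Testis and accessory gland markers other than these 10 genes were not analysed here, because the reference table paired none of the 28 symbols listed with an identifier of the file.

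All 10 genes had the higher mean in Gotheron under each of the 4 scalings tried, as 66.6% of genes with a mean of 5 or more had under the deposited one. In 8 of the 10 both Gotheron libraries lay above both Mayotte libraries, an order found in 34.8% of those genes. Together they took 0.495% of the values in the CG library and 0.525% in the NG library. They took 0.392% in the CM library and 0.376% in the NM library, so the sums of the 2 populations did not overlap under the deposited scaling. The abundant dj and Mst87F weigh most in these sums, and no like share over other sets of genes was counted. In whole-body RNA, fewer germ cells and less RNA per germ cell cannot be told apart. The 10 genes were read in the same 4 libraries, so counts among them are not counts of independent observations. A 2-step procedure was adapted from the study's methods, as an overdispersed Poisson model with a Wald test at a dispersion smoothed over genes of like mean. It called 2 of the 10 genes, Mst98Cb and Mst35Bb, higher in Gotheron, beside 3.12% of all genes. With the likelihood ratio test that the methods name in place of the Wald test, 4 of the 10 were called, with Mst84Db (adjusted p = 0.041) and Mst35Ba (adjusted p = 0.0481) added, beside 3.7% of all genes called higher in Gotheron. With limma, a linear model on log2 values, 0 of the 10 were called, beside 1.09% of all genes. Single genes differed in which library was high. Mst84Da was higher on the natural medium in each population, Mst84Dc was high in the NG library alone and Mst35Bb in the CG library alone.

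**Figure D1:**
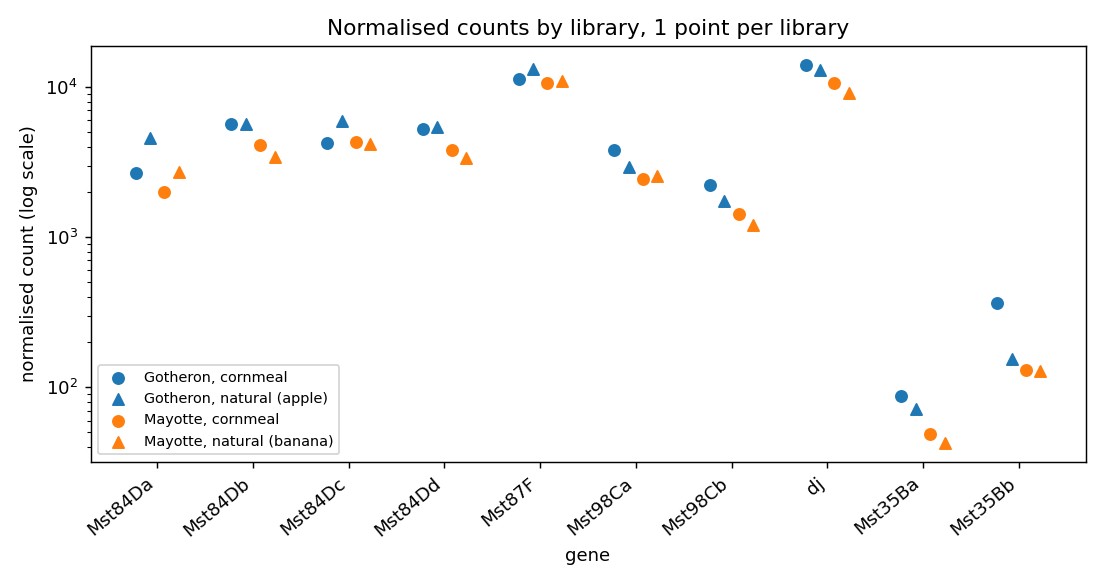
Normalised count of each gene (log scale) in each library, 1 point per library, with circles for cornmeal and triangles for natural medium, blue for Gotheron and orange for Mayotte. The blue points lie above the orange ones in 8 of the 10 genes, the exceptions being Mst84Da and Mst84Dc, and the CG point of Mst35Bb (362) stands apart from its other 3.

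The abundance of the 10 genes spread over a wide range. The gene dj had the highest mean normalised count over the 4 libraries, 11732, which placed it at rank 136 of all listed genes. Mst87F followed with 11543, at rank 141. The 4 Mst84D genes had means of 2991 to 4719, Mst98Ca had 2948 and Mst98Cb 1650. The protamine-like genes were far lower, with 194.0 for Mst35Bb (rank 5595) and 62.6 for Mst35Ba (rank 8738). The order of dj and Mst87F did not hold, since dj was the higher in 2 of 4 libraries. The order of Mst84Db, Mst84Dc and Mst84Dd did not hold either: Mst84Db was above Mst84Dc in 1 library and Mst84Dc above Mst84Dd in 3. Mst84Da was above Mst98Ca in 2 of 4. The other steps of the order were the same in all 4 libraries, namely Mst87F over Mst84Db, Mst84Dd over Mst84Da, Mst98Ca over Mst98Cb, Mst98Cb over Mst35Bb and Mst35Bb over Mst35Ba. Reads of near-identical copies can be split or lost in mapping, and for the Mst84D cluster, for Mst98Ca and Mst98Cb and for Mst35Ba and Mst35Bb this was not tested. Their single levels are uncertain to that extent.

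Among the Mst84D genes, which lie next to each other in D. melanogaster and encode short sperm tail proteins, Mst84Db had normalised counts of 5711 and 5662 in the CG and NG libraries and 4093 and 3411 in the CM and NM libraries. Mst84Dd followed it closely, with 5228 and 5385 in Gotheron and 3803 and 3388 in Mayotte. In both genes the Gotheron libraries lay close together and above both Mayotte libraries. The log2 ratio of Gotheron over Mayotte was 0.60 (standard error 0.20) in Mst84Db and 0.56 (standard error 0.20) in Mst84Dd. Their adjusted p-values in the 2-step procedure, 0.0503 and 0.0725, missed the threshold of 0.05, and those from limma were 0.184 and 0.191. Mst84Db passed it in 6 of 14 alternative settings.

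Mst84Dc had 4251 in the CG library, 5952 in the NG library, 4284 in the CM library and 4169 in the NM library. One library, NG, was high and the other 3 lay together, so the populations overlapped. Its log2 ratio was 0.27 (standard error 0.20, adjusted p = 0.541 in the 2-step procedure), and it was 0.01 without the NG library.

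Mst84Da had 2659 in the CG library and 4613 in the NG library. In Mayotte it had 1995 on cornmeal and 2698 on the natural medium. The NM library thus lay just above the CG library, and the populations overlapped. The log2 ratio of 0.63 (standard error 0.19) had an adjusted p of 0.0244 in the 2-step procedure, but the gene did not pass the consistency filter, which asks that both libraries of a population lie above both of the other. With limma its adjusted p was 0.382. Without the NG library the log2 ratio was 0.18, and without the CG library it was 0.98.

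Mst87F, a member of the same family outside the cluster, had 11369 and 13192 in the CG and NG libraries and 10569 and 11042 in the Mayotte ones. The populations did not overlap, but the gap was small beside the spread of the 2 Gotheron libraries. Its log2 ratio of 0.18 (standard error 0.22, adjusted p = 0.774 in the 2-step procedure) was the smallest of the 10 and lay near the median of all genes. After TMM scaling its log2 ratio was 0.06 and the populations overlapped. This gene gave no difference beyond the spread between libraries.

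The pair Mst98Ca and Mst98Cb, longer members of the same family, was highest in the CG library. Mst98Ca had 3835 there, 2953 in the NG library, 2459 in the CM library and 2545 in the NM library. Mst98Cb had 2212, 1754, 1419 and 1212 in the same order. In each gene both Gotheron libraries were above both Mayotte libraries, and the ratio of Mst98Ca to Mst98Cb stayed between 1.68 and 1.73 in 3 libraries and was 2.10 in the NM library. Mst98Cb passed the 2-step procedure with a log2 ratio of 0.59 (standard error 0.19, adjusted p = 0.0311), from means of 1983 ± 324 in Gotheron and 1316 ± 147 in Mayotte (SD, n = 2 each). With limma its log2 fold change was 0.59 (standard error 0.17, adjusted p = 0.204). The call was lost under TMM and median-of-ratios scaling, with adjusted p-values of 0.0807 and 0.0743. It was also lost without the CG, CM or NM library, with 0.320, 0.202 and 0.451, and with the dispersion corrected for its shift on the log scale, with 0.173. Over the 14 alternative settings its adjusted p ranged from 0.0023 to 0.451. Mst98Ca had a log2 ratio of 0.44 (standard error 0.19) with an adjusted p of 0.185 in the 2-step procedure and 0.341 with limma.

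The most abundant gene, dj, had normalised counts of 14064 and 13049 in the CG and NG libraries and 10632 and 9182 in the CM and NM libraries. Both Gotheron libraries lay above both Mayotte libraries, and in each population the natural library was the lower. The means were 13557 ± 718 and 9907 ± 1026 (SD, n = 2 each), a log2 ratio of 0.45 (standard error 0.23). The adjusted p was 0.284 in the 2-step procedure and 0.354 with limma, so the difference did not pass.

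The protamine-like gene Mst35Ba had few reads, 86 and 72 in the CG and NG libraries and 48 and 44 in the Mayotte ones. These reads correspond to normalised counts of 87.1, 71.8, 49.1 and 42.7. All of Gotheron was above all of Mayotte, with a log2 ratio of 0.79 (standard error 0.27, adjusted p = 0.0617 in the 2-step procedure and 0.218 with limma). The ratio was 1.77 between the cornmeal libraries, with a 95% Clopper-Pearson interval of 1.23 to 2.58, and 1.68 between the natural libraries, with an interval of 1.14 to 2.51. These intervals cover counting error only.

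Mst35Bb had 362 in the CG library, 153 in the NG library, 131 in the CM library and 129 in the NM library. One library was high and the other 3 were close to each other. The means were 258 ± 148 in Gotheron and 130 ± 1.35 in Mayotte (SD, n = 2 each). The log2 ratio of 0.99 (standard error 0.21) was the largest of the 10 and passed the 2-step procedure (adjusted p = 0.000167). With limma, which takes its spread within populations, the log2 fold change was 0.86 (standard error 0.35, adjusted p = 0.342). The call rested on the CG library: without it the log2 ratio was 0.24 (adjusted p = 0.737). The gene was called in 13 of 14 alternative settings, the exception being the one without that library. Its own dispersion over the 4 libraries was 65.7, which is 17.7 times the dispersion of 3.70 that the smoothed curve gave to genes of its mean, and 1.26% of genes with a mean of 5 or more departed from the curve as far or further. This dispersion was taken around 1 mean of the 4 libraries, so it holds the difference between the populations as well as the spread within them. The standard error of the 2-step procedure came from the curve. Between the natural libraries alone, the ratio of Gotheron to Mayotte was 1.19 with an interval of 0.937 to 1.51, a difference not detectable at this depth. The ratio of Mst35Bb to Mst35Ba was 4.16 in the CG library and 2.14, 2.67 and 3.02 in the NG, CM and NM libraries.

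Most of the 10 genes are abundant. Of the 1552 genes whose mean was 1000 or more, the 2-step procedure called 4.51% higher in Gotheron, and 38.2% had both Gotheron libraries above both Mayotte libraries. After TMM scaling 7 genes had that order, beside 20.9% of all. The median log2 ratio of the 10 genes was 0.58 beside 0.13 over all genes, and 0.45 beside 0.00 after TMM scaling. The distance between the 2 medians was 0.45 under each of the 4 scalings tried. A scaling multiplies each library by 1 factor and so shifts all genes nearly alike. This distance could therefore hardly change and says nothing on robustness. Limma gave an unadjusted p under 0.05 to 7 of the 10, beside 9.86% of all genes with such a p and the higher value in Gotheron. The 7 are not independent, since all were read in the same libraries. On the recovered reads of the CG, CM and NM libraries, those that a check of the units accepted, edgeR's quasi-likelihood test and DESeq2 each called 1 of the 10, Mst35Bb, beside 4.26% and 1.99% of the genes they tested. The single Gotheron library in them was CG, which carries the high value of that gene, and without NG the edgeR log2 fold changes of Mst84Dc and Mst87F were -0.13 and -0.06. For 1 gene with 2 libraries in each population, 0.33 is the smallest two-sided p that an exact permutation test allows, so the p-values given here rest on spread shared over genes.

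**Figure D2:**
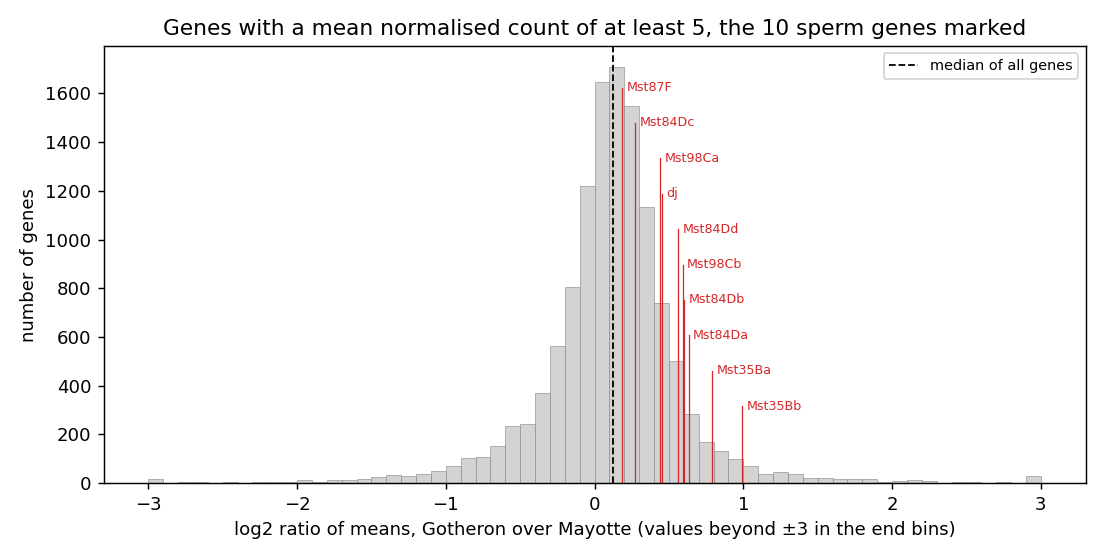
Number of genes by the log2 ratio of the population means (Gotheron over Mayotte) for genes with a mean normalised count of at least 5, with the 10 sperm genes as red lines and the median of all genes, 0.13, as a dashed line. The red lines run from 0.18 (Mst87F) to 0.99 (Mst35Bb), all to the right of the dashed line.

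**Figure D3:**
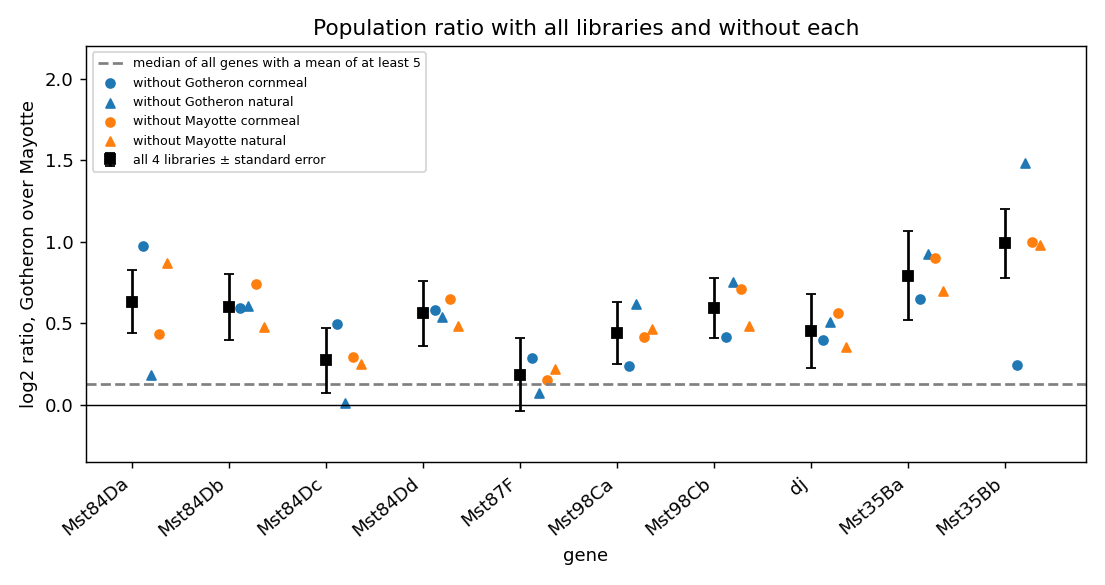
Log2 ratio of Gotheron over Mayotte for each gene with all 4 libraries (black squares, bars of 1 standard error of the 2-step procedure) and with each library left out (coloured points). The points of Mst84Da run from 0.18 to 0.98 and those of Mst35Bb from 0.24 to 1.48, wider than those of dj, from 0.35 to 0.56.

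Between the cornmeal libraries, where both populations had the same kind of medium, 9 of the 10 genes were higher in Gotheron, beside 62.7% of all genes, with a median log2 ratio of 0.47 beside 0.12. Between the natural libraries all 10 were higher, beside 63.1% of all genes, with a median of 0.52 beside 0.12. The ratios within a medium have no replicate. The 5 genes Mst84Da to Mst84Dd and Mst87F all had the larger ratio on the natural media: Mst84Dc went from a log2 ratio of -0.01 on cornmeal to 0.51. Mst98Ca, Mst98Cb, Mst35Ba and Mst35Bb had the larger ratio on cornmeal, and Mst35Bb went from 1.47 to 0.25. The counting intervals of the 2 media overlapped for Mst98Cb and for Mst35Ba, the latter with log2 ratios of 0.83 and 0.75. For dj the log2 ratios were 0.40 and 0.51. Whether the population ratio differed between the 2 media was tested for every gene in the 2-step model, and none of the 10 passed, beside 0.508% of all genes. Mst35Bb had the smallest p of the 10 in that test, 0.00508 unadjusted and 0.293 adjusted, and the other 9 had adjusted p-values of 0.890 or more. With 1 library for each population and medium, a response to the medium and a deviating library cannot be told apart in it.

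**Figure D4:**
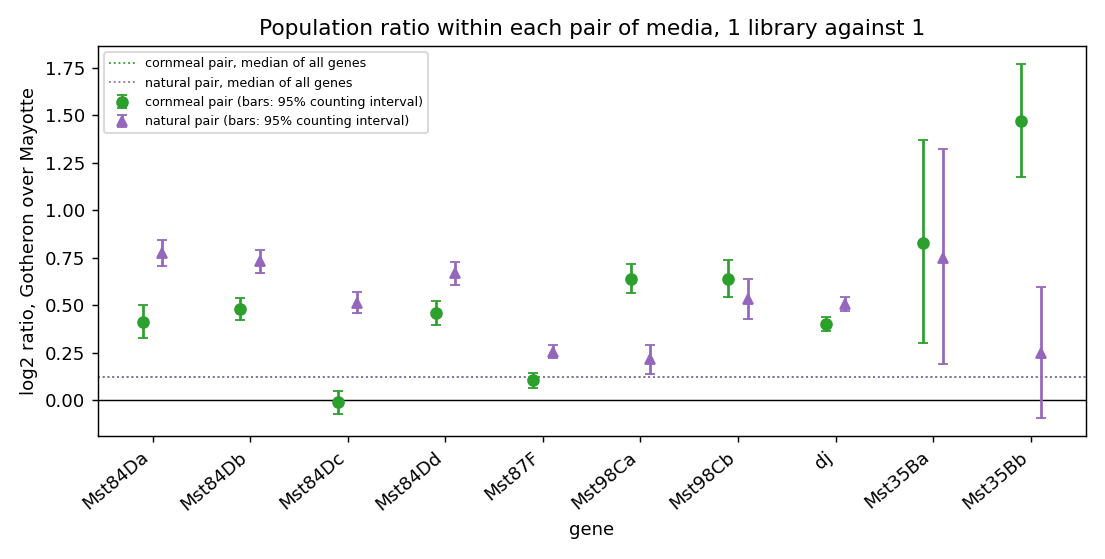
Log2 ratio of Gotheron over Mayotte for each gene, between the cornmeal libraries (green circles) and between the natural libraries (purple triangles), with 95% Clopper-Pearson counting intervals and the median of all genes as dotted lines, both at 0.12. The Mst84D genes and Mst87F sit higher in the natural pair, and Mst35Bb falls from 1.47 to 0.25.

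Natural medium over cornmeal was tested between the pooled libraries of each medium, with no separate population term and no consistency filter. In that test 1 of the 10 genes passed, beside 1.22% of all genes. This gene was Mst35Bb, lower on the natural medium with a log2 ratio of -0.80 (standard error 0.21, adjusted p = 0.0136), beside 0.449% of all genes called in that direction. Its ratio of natural over cornmeal was 0.423 in Gotheron (interval 0.348 to 0.513) and 0.985 in Mayotte (interval 0.767 to 1.27), so the decrease lay in the Gotheron libraries. Its NG value lay above its CM value, so the media overlapped. This is the same high CG value on which the population call rested.

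Mst84Da went the other way. Its ratio of natural over cornmeal was 1.73 in Gotheron and 1.35 in Mayotte, and both natural libraries lay above both cornmeal libraries, an order found in 12.5% of genes with a mean of 5 or more. The log2 ratio was 0.65 (standard error 0.19) with an adjusted p of 0.0590 under the deposited scaling. It passed under TMM scaling, median-of-ratios scaling and equal totals without the 10 most abundant genes, with adjusted p-values of 0.0189, 0.0188 and 0.0288. Within the cluster, Mst84Da made up 14.9% of the summed Mst84D values in the CG library and 21.3% in the natural one, and 14.1% and 19.7% in Mayotte. The ratio of Mst84Dd to Mst84Db, in contrast, lay between 0.915 and 0.993 in the 4 libraries.

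Apart from Mst35Bb and Mst84Da, the other 8 genes did not pass the test of the medium under any scaling tried. Mst87F was higher on the natural medium in both populations, with ratios of 1.16 in Gotheron and 1.04 in Mayotte. Unlike in Mst84Da, the media overlapped in Mst87F, with 11042 in the NM library and 11369 in the CG library. In 5 genes, Mst98Cb, dj, Mst35Ba, Mst35Bb and Mst84Db, the natural library was the lower in both populations, for Mst84Db with a log2 ratio of -0.01 in Gotheron. The counting intervals included a ratio of 1 for Mst35Ba in both populations, for Mst35Bb in Mayotte and for Mst84Db in Gotheron. Of genes with a mean of 5 or more, 46.7% were higher on the natural medium in Gotheron and 46.1% in Mayotte. The share lower in both was not counted. Mst98Ca was lower on the natural medium in Gotheron, with a ratio of 0.770, and had a ratio of 1.03 in Mayotte. Over all genes the median log2 ratio of natural over cornmeal was -0.02 in Gotheron and -0.03 in Mayotte.

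**Figure D5:**
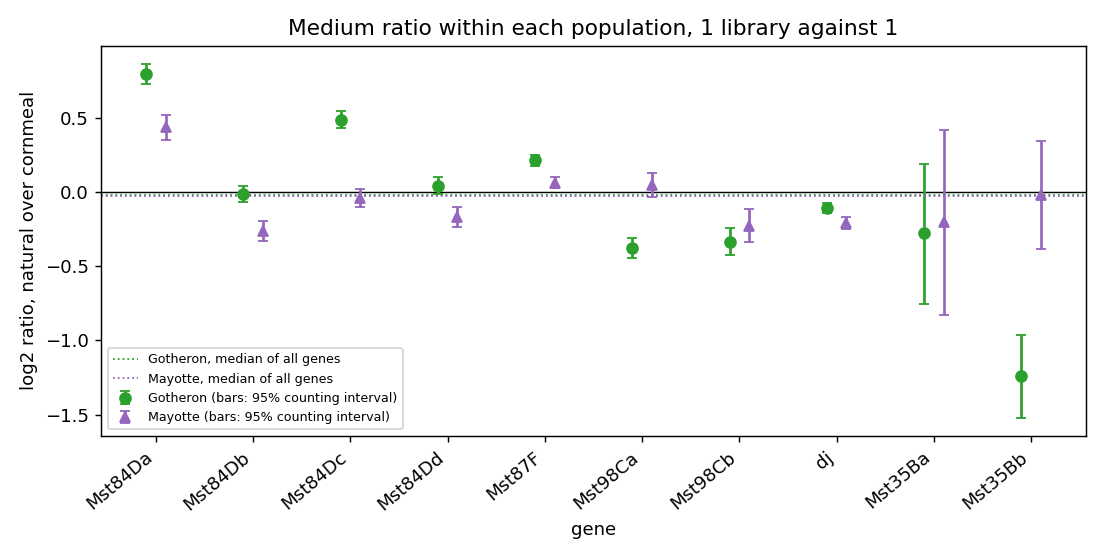
Log2 ratio of natural over cornmeal for each gene in Gotheron (green circles) and in Mayotte (purple triangles), with 95% Clopper-Pearson counting intervals and the median of all genes as dotted lines. Mst84Da is above 0 in both populations, at 0.79 and 0.44, and Mst35Bb is at -1.24 in Gotheron and -0.02 in Mayotte.

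The mean profile of the 10 genes over the 4 libraries, on log2(normalised count + 1) centred for each gene, was 0.31 and 0.22 in the CG and NG libraries and -0.24 and -0.29 in the Mayotte ones. Single genes lay at different distances from it. The nearest members were Mst84Dd, with a Euclidean distance of 0.12, and dj, with 0.13, and the farthest were Mst84Da, with 0.71, and Mst35Bb, with 0.88. Outside the 10, the nearest of 9243 genes with a mean of at least 50 were FBgn0027569, with a distance of 0.013 and normalised counts of 492, 470.4, 338 and 325 in the same order of libraries, and FBgn0034664, with a distance of 0.024. The profile has 4 points, and 102 genes lay nearer to it than any of the 10 did.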

How the data were processed

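The authors sequenced 3′ cDNA ends, cleaned the reads with seqclean and mapped them with ELAND to the D. melanogaster genome and then to that of D. simulans, moving D. simulans counts to the D. melanogaster ortholog. The labels also name CASAVA. Neither a build nor a version is named in the sources used. The unit of the deposited table is a signal: reads per gene times 1 factor per library, set to give equal totals. In every library 100% of the values were whole multiples of the smallest value, within 0.01. For the Gotheron natural library, whose factor is close to 1, the recovered reads failed a check of the units, so counting intervals that use it rest on reads that failed this check, and edgeR 4.0.16 and DESeq2 1.42.0 ran on the other 3 libraries, with Gotheron's single library assumed to vary like Mayotte's.

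Gene names follow the identifiers. Neither the file nor the reference table of Prin_Dsim_3.1 pairs them, and 0 of 10 identifiers matched, so no sequence is shown. The members and lists were chosen with earlier results of these data known.

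A 2-step test adapted from the study's methods was run in R 4.3.3 on all 15358 genes: Pearson dispersion around 1 mean, loess smoothing on the log scale (span 0.75, degree 2), a Wald test, Benjamini-Hochberg adjustment at 0.05 and the consistency filter. The methods name a likelihood ratio test, run here as an alternative, and leave out immunity genes, which were kept here. The medium and the interaction used the same dispersion and no consistency filter. Dispersions with fewer degrees of freedom were shifted to the same footing. The main curve smooths log dispersions and was not corrected for the downward shift that this brings. Its standard errors are therefore smaller than those of the log-bias corrected alternative. Limma 3.58.1 with a trended prior used the log2 of the normalised count with a pseudocount of 1 and left out genes whose mean was below 5. The libraries are single pools and their labels give no replicate numbers. Cornmeal was numbered replicate 1 and natural replicate 2. The main 2-step fits of population, medium and interaction and the limma fit were run on simulated data. The planted changes were larger than the ratios of the 10 genes, and only their recovery was required. The likelihood ratio test, edgeR and DESeq2 were not run on simulated data. The genes named are all 10 members and the 2 genes nearest to their mean profile. Alternatives were other scalings, dispersions, filters, pseudocounts and each library left out.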

Additional observations from a re-analysis of the deposited data

How the results depend on the processing

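Settings that altered only the test, the dispersion, the filter or the block left a log2 ratio as it was. Only other scalings, other pseudocounts and left-out libraries could change its sign. No log2 ratio of Gotheron over Mayotte changed sign in the 140 combinations of gene and 2-step setting or the 120 of gene and limma setting. Of the former, 7 lost a call and 18 gained one, and of the latter 5 gained one. EdgeR and DESeq2, run without the NG library, are not among these combinations. They gave log2 ratios of -0.13 and -0.11 for Mst84Dc and -0.06 and -0.05 for Mst87F, with positive ratios for the other members. The cornmeal pair alone gave -0.01 for Mst84Dc. Of the 10 genes, the 2-step procedure called 4 with the likelihood ratio test, 6 with the dispersion within populations, 5 with the quadratic curve, 1 under TMM scaling, 1 under median-of-ratios scaling and 1 with the log-bias corrected dispersion, a setting chosen after seeing the data. EdgeR and DESeq2 called 1 each. Leaving out a library gave 1 to 4: the 4 without Gotheron replicate 2, and 1 each without Gotheron replicate 1 (Mst84Da) and without Mayotte replicate 1 (Mst35Bb). Over all genes the 801 calls became 956 with the likelihood ratio test, 826 with the quadratic curve, 874 under TMM, 872 under median-of-ratios, 1407 with the dispersion within populations, 431 with the log-bias correction, 516 with edgeR, 226 with DESeq2 and 401 to 949 with a library left out.

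Limma called 0 of the 10 in every setting with all 4 libraries, 4 without Gotheron replicate 2 (Mst98Ca, Mst98Cb, Mst35Ba and Mst35Bb) and 1 without Gotheron replicate 1 (Mst84Da). Its 136 calls over all genes became 34 without the filter, 13 with 1 prior variance and 61 to 1086 with a library left out. The labels pair libraries by medium only. The natural minus cornmeal differences of the populations had a correlation of 0.085 across 9253 genes, which are not independent. With medium as a replicate block the 2-step procedure called 5 of the 10 and 1525 genes in all, and limma 0 and 314.

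The median log2 ratio of the 10 genes, 0.58, became 0.45 under TMM, 0.46 under median-of-ratios and 0.52 under equal totals without the 10 most abundant genes. It was 0.47 from the cornmeal and 0.52 from the natural libraries alone, and 0.45 to 0.60 with a library left out. For the medium, 2 of the 10 passed under each of the 3 other scalings, Mst84Da and Mst35Bb, with 257 genes in all under TMM, 257 under median-of-ratios and 234 without the 10 most abundant genes in place of 188. The interaction called 0 of the 10 in all settings run, and 121 and 122 genes in all under TMM and median-of-ratios scaling in place of 78. The cause of these shifts was not tested. With 2 libraries per population, each a different medium, and 42.7 to 87.1 normalised counts for Mst35Ba, ratios of the protamine-like genes carry the widest counting error.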
